A study of Homo sapiens with 6 samples.

Results

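Interferon-stimulated genes are the genes that cells switch on after interferon, or after sensing foreign RNA, and a set of 37 of them was followed here through 6 RNA sequencing libraries. The genes were chosen by symbol, by their roles in sensing, signalling and antiviral defence, with earlier results of these data known. All 37 were found among the 23686 genes of the deposited tables. They serve as a check for an innate response to the small interfering RNAs (siRNAs) used in the study. Of the 37, 36 had at least 10 reads in at least 2 libraries and were tested, while MX2 was below that limit.

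The study silenced LGR6, a receptor for R-spondins, in A427 and HCC15, established human lines of non-small cell lung carcinoma with the genotype given as WT. Each line gave 3 libraries: a control transfected with Tax siRNA, as the label has it, one transfected with LGR6 siRNA 2 and one with LGR6 siRNA 4. All cells grew in RPMI medium with 5% serum and were collected 48 h after transfection. Every group had therefore been transfected with an siRNA, and no library without transfection was analysed here, so a response that all the siRNAs share was not measured. No pair of libraries had the same line and the same siRNA, and the labels do not say whether cultures were separate. The p-values thus measure how far siRNA effects differed between libraries, not a spread between replicates, and each line had 1 control library.

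Type I interferon binds a receptor of IFNAR1 and IFNAR2, whose kinases JAK1 and TYK2 phosphorylate STAT2. This joins IRF9 in a complex that binds the interferon-stimulated response element (ISRE) in target promoters. Double-stranded RNA reaches the same genes through TLR3 in endosomes and through DDX58 (RIG-I) and IFIH1 (MDA5) in the cytosol. Many of the induced proteins act on viral RNA or viral entry, and many are present at low levels in unstimulated epithelial cells.

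The ISRE letters can be read in the promoters of some of the genes the results turn on. RefSeq promoters on GRCh38.p14, from 250 bases before to 50 bases after a gene's start, were matched for 31 of the 37 genes, DDX58 under its current symbol RIGI. The pattern searched for the ISRE was GAAA, any pair of bases and GAAA again, on either strand (TTTC, a pair of bases and TTTC on the other). It was in 21 of these 31 genes (67.7%) and in 1195 of 27305 genes with a promoter in the same table (4.38%). The ISRE pattern was also found in IFIT3, OAS3, BST2, IFI27 and others, and it was not found in the windows of STAT2, HERC6, IRF9 or IFI35. No promoter of OASL was matched. A match describes letters only. The stretches below hold the matches before the start site of 4 genes that differed between siRNAs (IFIT1, IFIT5, IFI44, IFITM3), 3 that differed strongly between the lines (IFITM1, SAMD9, IFIH1) and 1 that was level throughout (ISG15). They are written 5′ to 3′ on the gene's strand, with ISRE matches in capitals. They come from chr10:89392487-89392549 (+) for IFIT1, chr10:89414503-89414567 (+) for IFIT5, chr1:78649751-78649788 (+) for IFI44, chr11:320866-320932 (-) for IFITM3, chr11:313980-314029 (+) for IFITM1, chr7:93118086-93118135 (-) for SAMD9, chr2:162318685-162318863 (-) for IFIH1 and chr1:1013364-1013419 (+) for ISG15.
IFIT1: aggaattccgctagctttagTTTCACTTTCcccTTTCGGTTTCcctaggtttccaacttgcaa
IFIT5: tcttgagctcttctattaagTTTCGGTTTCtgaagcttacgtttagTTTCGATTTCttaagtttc
IFI44: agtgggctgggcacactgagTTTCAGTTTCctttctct
IFITM3: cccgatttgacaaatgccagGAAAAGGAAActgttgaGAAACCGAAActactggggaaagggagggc
IFITM1: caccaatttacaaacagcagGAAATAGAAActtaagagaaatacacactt
SAMD9: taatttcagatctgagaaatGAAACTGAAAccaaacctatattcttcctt
IFIH1: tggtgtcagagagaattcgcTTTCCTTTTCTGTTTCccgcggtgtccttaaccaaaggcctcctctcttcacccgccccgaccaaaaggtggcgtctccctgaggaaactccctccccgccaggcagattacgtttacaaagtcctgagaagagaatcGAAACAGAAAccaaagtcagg
ISG15: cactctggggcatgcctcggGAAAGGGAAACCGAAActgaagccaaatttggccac

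Libraries held 25546438 to 28987906 expected counts. LGR6 itself was at 257, 39 and 77 reads in HCC15 (control, siRNA 2, siRNA 4) and at 5, 0 and 0 reads in A427, so in A427 the silencing rested on 5 reads. Epithelial markers summed to 3225 to 6516 CPM (counts scaled to the library total) in HCC15 and to 697 to 890 CPM in A427, where 4 of 6 reached 10 reads. Fibroblast markers summed to 16.1 to 21.4 CPM in HCC15 and 218 to 277 CPM in A427, with DCN at 0 reads in both lines. Blood cell markers summed to 4.18 to 5.65 and 23.4 to 27.6 CPM, with CD3E and LYZ at 0 in both, and endothelial markers stayed at or under 0.993 CPM. Levels below are in the same CPM, unless TPM, which also divide by transcript length, are named. Values in triplets are for control siRNA, LGR6 siRNA 2 and LGR6 siRNA 4.

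Neither LGR6 siRNA was followed by a rise across the set. The siRNA 2 libraries differed from control at an adjusted p under 0.05 in 1 of 36 genes tested (2.78%, edgeR with Benjamini-Hochberg adjustment), which was lower, beside 7.62% of all 14481 genes tested (2.96% higher and 4.66% lower). The siRNA 4 libraries differed in 5 of 36 (13.9%), 3 higher and 2 lower (8.33% and 5.56%), beside 12.5% of all genes (4.58% higher and 7.95% lower). Between siRNA 4 and siRNA 2, 4 of 36 differed (11.1%), beside 16.5% of all genes (7.7% higher and 8.84% lower with siRNA 4). The median log2 difference over the 36 was -0.03 with siRNA 2 and -0.01 with siRNA 4, and over all genes it was -0.01 with each. The 2 contrasts with control use the same control libraries. The share for siRNA 4 was near the background, and the other shares were below it.

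**Figure D1:**
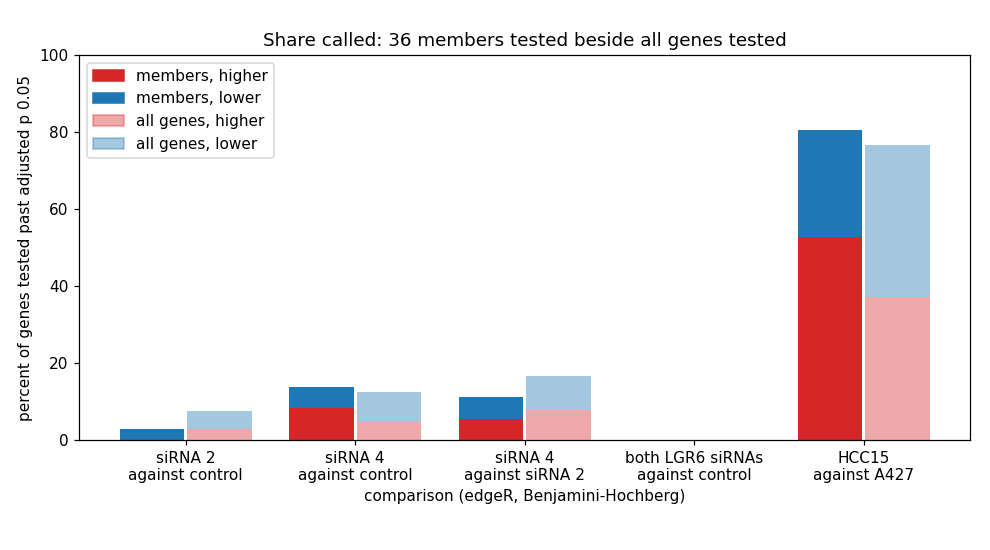
Percent of genes tested that passed an adjusted p of 0.05 in each comparison (y axis), with higher genes in red and lower genes in blue. Solid bars are the 36 interferon-stimulated genes tested and pale bars all 14481 genes, and for siRNA 4 against control the bars reach 13.9% and 12.5%. For HCC15 against A427, the higher interferon-stimulated genes include 10 tested only because of their HCC15 reads, which set their direction.

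Among the sensors, none passed the test with either siRNA. TLR3, the endosomal sensor of double-stranded RNA, was at 1.95, 0.953 and 2.86 CPM in A427 and at 7.95, 8.77 and 6.66 CPM in HCC15. DDX58, which binds RNA with a 5′ triphosphate, was at 14.4, 9.91 and 18.8 CPM in A427 and at 10.8, 10.5 and 7.33 CPM in HCC15. IFIH1, which binds long double-stranded RNA, was at 444, 370 and 446 CPM in A427 and at 41.9, 41.2 and 40.9 CPM in HCC15. In A427 all 3 were lowest with siRNA 2. In HCC15 TLR3 and DDX58 were lowest with siRNA 4, while IFIH1 was level within counting error. The siRNAs thus did not order TLR3 and DDX58 alike in the lines, with each value from a single library.
The log2 difference of IFIH1 from control was -0.15 with an SE of 0.12 for siRNA 2 and -0.01 with an SE of 0.12 for siRNA 4. TLR3 and DDX58 had wider errors, with SEs of 0.37 and 0.30 on the log2 scale.

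Of the signal transducers and transcription factors, STAT2 fell with siRNA 4 in both lines. STAT2, the partner of IRF9 in the complex that binds the ISRE, was at 167, 154 and 107 CPM in A427 and at 45, 49.4 and 33.2 CPM in HCC15. The siRNA 4 library was the lowest of the 3 in each line. STAT2 fell by 0.55 on the log2 scale (SE 0.12, edgeR with Benjamini-Hochberg adjusted p = 0.0262) against control and by 0.55 (SE 0.12, edgeR with Benjamini-Hochberg adjusted p = 0.0215) against siRNA 2. With siRNA 2 its log2 difference from control was 0.00 (SE 0.12).
IRF9, the DNA-binding part of that complex, was at 12.6, 11.3 and 8.92 CPM in A427 and at 9.47, 8.45 and 5.22 CPM in HCC15. It too was lowest with siRNA 4 in each line, at a log2 difference from control of -0.66 (SE 0.19) that missed the threshold (edgeR with Benjamini-Hochberg adjusted p = 0.0557). Of 4143 windows of 50 bases in the transcripts of IRF9, 43.6% also occur in a transcript of another gene, so its reads may be shared. IRF1, a factor that binds many of these promoters, was at 29.3, 23.9 and 34.7 CPM in A427 and at 17.8, 19.2 and 17.3 CPM in HCC15, and it did not pass the test with either siRNA. IRF7, which amplifies interferon production, ranged from 3.39 to 6.39 CPM over the 6 libraries and did not pass either.

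The IFIT family binds foreign RNA and blocks its translation, and 2 of its 4 genes differed between siRNAs. IFIT5 was at 8.15, 8.39 and 13.1 CPM in A427 and at 33.0, 26.5 and 53.2 CPM in HCC15. It was highest with siRNA 4 in both lines, and rose by 0.68 on the log2 scale against control (SE 0.16, edgeR with Benjamini-Hochberg adjusted p = 0.0288) and by 0.84 against siRNA 2 (SE 0.16, edgeR with Benjamini-Hochberg adjusted p = 0.0117).
IFIT1, which recognises RNA whose cap lacks a methyl group, moved the other way. It was at 1.99, 1.56 and 1.16 CPM in A427 and at 16.3, 22.5 and 10.1 CPM in HCC15, lowest with siRNA 4 in each line. The fall was 0.98 on the log2 scale against siRNA 2 (SE 0.24, edgeR with Benjamini-Hochberg adjusted p = 0.0294), and 0.40 without the HCC15 siRNA 2 library. Against control the difference of -0.73 (SE 0.25) missed the threshold (edgeR with Benjamini-Hochberg adjusted p = 0.0937). Promoters of both genes hold the ISRE pattern, as the stretches above show.
IFIT2 was at 8, 5 and 12 reads in A427 and at 6.77, 13.8 and 9.35 CPM in HCC15. IFIT3, which binds IFIT1 and steadies it, was at 5, 0 and 3 reads in A427 and at 3.84, 6.28 and 6.35 CPM in HCC15. In HCC15 both were above control with each LGR6 siRNA, and in A427 there were too few reads to read an order. Their log2 differences from control lay between 0.50 and 0.91, and none passed the test.

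The OAS enzymes make the 2′-5′ oligoadenylates that activate RNase L, and OASL is a relative without that activity that acts on DDX58. OASL was at 0.205, 0.381 and 0.580 CPM in A427 (6, 10 and 16 reads) and at 1.29, 3.05 and 3.27 CPM in HCC15 (34, 87 and 84 reads). In each line both LGR6 siRNA libraries lay above the control. With siRNA 4 OASL rose by 1.37 on the log2 scale (SE 0.33, edgeR with Benjamini-Hochberg adjusted p = 0.0328), and with siRNA 2 the difference of 1.17 (SE 0.34) missed the threshold (edgeR with Benjamini-Hochberg adjusted p = 0.0736).
OAS1 was at 10, 8 and 11 reads in A427 and at 3.61, 3.82 and 2.46 CPM in HCC15. OAS2 was at 4, 3 and 4 reads in A427 and at 31, 25 and 32 reads in HCC15. OAS3, the enzyme of the family with the highest level here, was at 69.6, 69.2 and 77.5 CPM in A427 and at 49.1, 54.4 and 59.1 CPM in HCC15. None of the 3 enzymes passed the test with either siRNA.

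Among the direct effectors, IFITM3 was lower with both LGR6 siRNAs in both lines. IFITM3, a membrane protein that blocks virus fusion, was at 123, 80.8 and 98.3 CPM in A427 and at 404, 288 and 312 CPM in HCC15, with the control library highest in each line. With siRNA 2 it fell by 0.54 on the log2 scale (SE 0.11, edgeR with Benjamini-Hochberg adjusted p = 0.0271), the 1 call with that siRNA. With siRNA 4 the difference was -0.35 (SE 0.11) and missed the threshold (edgeR with Benjamini-Hochberg adjusted p = 0.0832). IFITM1 was at 7, 3 and 10 reads in A427 and at 81.8, 52.5 and 62.1 CPM in HCC15, and did not pass with either siRNA. The IFITM genes resemble each other: 17.4% of 50-base windows of IFITM3 and 32.0% of those of IFITM1 occur in a transcript of another gene on the same strand, mostly IFITM2 and each other, so their separate levels are uncertain.
MX1, a GTPase that traps viral nucleocapsids, was at 1.10, 0.725 and 0.761 CPM in A427 and at 14.9, 17.1 and 28 CPM in HCC15. It was highest with siRNA 4 in HCC15 and highest with control siRNA in A427, and did not pass. RSAD2 (viperin), which makes a chain-terminating nucleotide, was at 39, 16 and 4 reads in A427 and at 14, 24 and 9 reads in HCC15. It was lowest with siRNA 4 in each line, at a log2 difference from control of -1.93 (SE 0.63) that missed the threshold (edgeR with Benjamini-Hochberg adjusted p = 0.0845).
CMPK2, a nucleotide kinase encoded beside RSAD2, was at 7.94, 8.31 and 7.58 CPM in A427 and at 2.13, 1.72 and 1.21 CPM in HCC15. BST2 (tetherin), which holds budding virus at the cell surface, was at 34.7, 33.6 and 38.1 CPM in A427 and at 64.2, 52.3 and 74.3 CPM in HCC15. Neither passed the test with an LGR6 siRNA. MX2 was at 0, 0 and 1 read in A427 and at 4, 1 and 11 reads in HCC15, and was not tested.

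In the ISG15 system, which couples a ubiquitin-like protein to other proteins, HERC6 fell with siRNA 4. HERC6, a HECT-type ligase, was at 23.4, 16.3 and 17.6 CPM in A427 and at 19, 12.1 and 9.98 CPM in HCC15, and the control library was the highest of the 3 in each line. With siRNA 4 it fell by 0.66 on the log2 scale (SE 0.18, edgeR with Benjamini-Hochberg adjusted p = 0.0474), and with siRNA 2 the difference of -0.59 (SE 0.18) missed the threshold (edgeR with Benjamini-Hochberg adjusted p = 0.0853).
ISG15, the conjugated protein and one of the most strongly interferon-induced genes, was at 19.1, 16.6 and 17.1 CPM in A427 and at 17.5, 16.2 and 16.4 CPM in HCC15. All 6 values lay between 16.2 and 19.1 CPM, and the log2 differences from control were -0.16 and -0.13, each with an SE of 0.15. HERC5, the main ISG15 ligase in human cells, was at 54.6, 68.3 and 59.2 CPM in A427 and at 38.4, 48.4 and 38.4 CPM in HCC15. USP18, which removes ISG15 and restrains the interferon receptor, was at 6.75, 7.44 and 5.44 CPM in A427 and at 41.7, 45.6 and 32.2 CPM in HCC15. Neither passed with an LGR6 siRNA, and 23.4% of the 50-base windows of USP18 also occur in a transcript of another gene, so its reads may be shared.

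Of the IFI genes, IFI44 rose with siRNA 4. It was at 7, 3 and 9 reads in A427 and at 17.5, 21.9 and 38.3 CPM in HCC15 (461, 625 and 982 reads). In HCC15 the siRNA 4 library stood above the others, and in A427 the 3 libraries lay within a few reads of each other. IFI44 rose by 1.08 on the log2 scale against control (SE 0.23, edgeR with Benjamini-Hochberg adjusted p = 0.0207) and by 0.83 against siRNA 2 (SE 0.22, edgeR with Benjamini-Hochberg adjusted p = 0.0402). Without the HCC15 control library the first of these was 0.25, and without the HCC15 siRNA 2 library the second was 1.73.
Its neighbour IFI44L was at 1, 1 and 2 reads in A427 and at 41, 53 and 61 reads in HCC15. IFI27 was at 5, 0 and 2 reads in A427 and at 81, 84 and 88 reads in HCC15. IFI35 was at 40.5, 34.1 and 35.1 CPM in A427 and at 2.74, 4.03 and 3.19 CPM in HCC15. IFI6 ranged from 8.22 to 14.7 CPM over the 6 libraries. None of these 4 passed the test with an LGR6 siRNA.

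In the remaining group no gene passed the test with an LGR6 siRNA. PARP9 was at 40.4, 29.4 and 37.3 CPM in A427 and at 21.1, 17.9 and 18.9 CPM in HCC15. PARP14, which like PARP9 belongs to the ADP-ribosyltransferase family, ranged from 81.8 to 118 CPM over the 6 libraries, and the helicase relative DDX60 from 5.38 to 13.7 CPM. XAF1, a cell-death factor, was at 0 reads in all 3 A427 libraries, which allows up to 0.114 CPM in a library, and at 42, 61 and 16 reads in HCC15. SAMD9, which restricts poxviruses, was at 10, 4 and 5 reads in A427 and at 43.1, 39.4 and 38.1 CPM in HCC15. SAMD9L was at 1, 0 and 4 reads in A427 and at 82, 99 and 134 reads in HCC15. Of the 50-base windows of XAF1, IRF1 and IFITM3, 34.7%, 21.2% and 17.8% match a transcript on the opposite strand, and without a known strand setting these reads cannot be told apart. At these low A427 levels a fall of XAF1, SAMD9 or SAMD9L could hardly be read in that line. With the LGR6 siRNAs XAF1 stayed at 0 reads there, SAMD9 was at 4 and 5 reads and SAMD9L at 0 and 4.

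**Figure D2:**
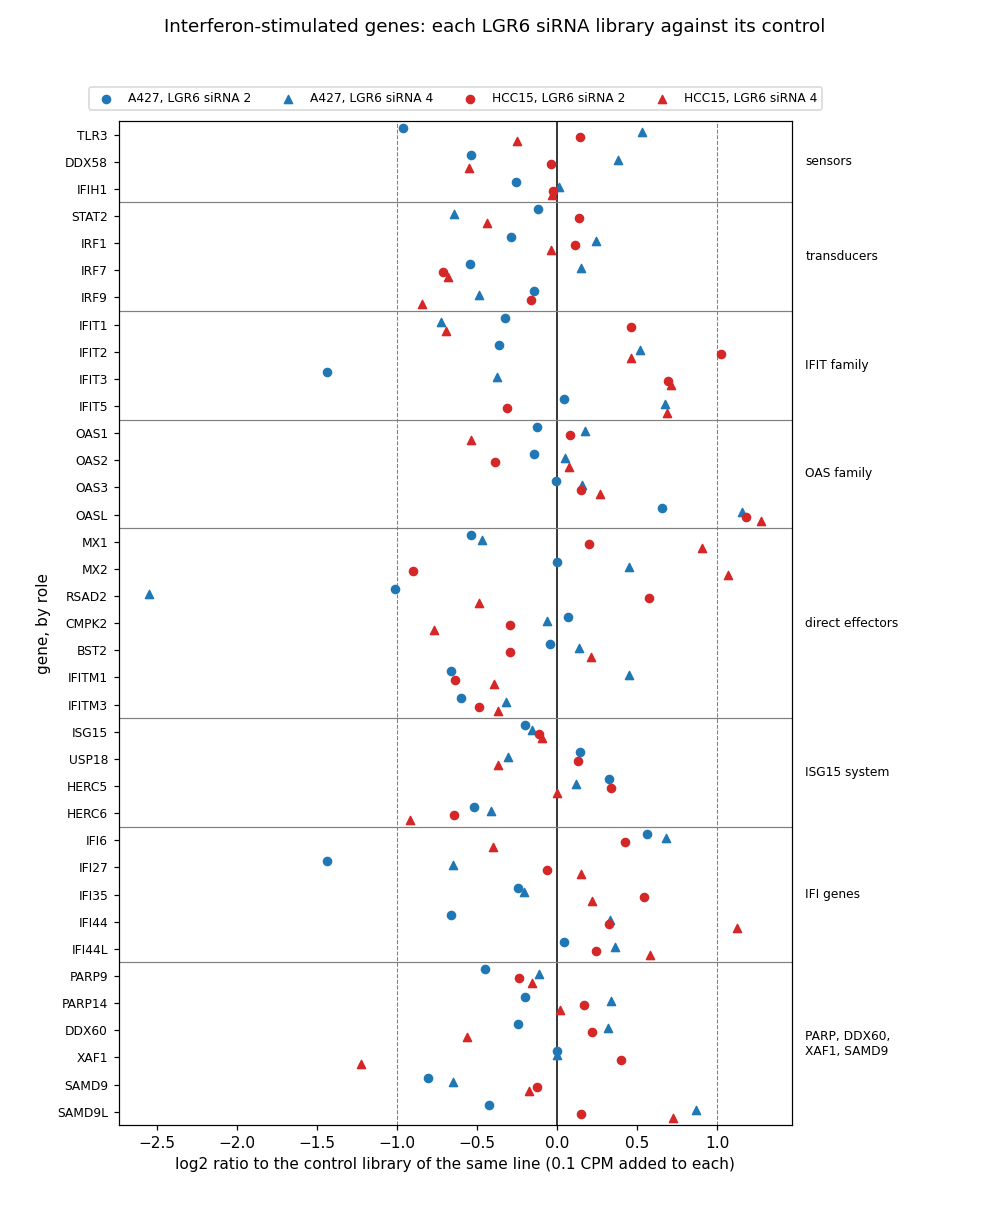
Log2 ratio of each LGR6 siRNA library to the control library of its line, with 0.1 CPM added to each value (x axis), for the 37 genes by role (y axis). Points are single libraries, blue for A427 and red for HCC15, circles for siRNA 2 and triangles for siRNA 4; OASL lies right of 0 in all 4 and IFITM3 and HERC6 lie left of 0 in all 4, while RSAD2 reaches -2.55 in A427 with siRNA 4.

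Library by library, the genes above control outnumbered those below in some cases and not in others. With 0.1 CPM added to each value, the A427 siRNA 2 library was lower than its control in 28 of 37 genes and higher in 7, with a median log2 ratio of -0.25, beside 51.4% lower and 46.9% higher over all genes tested and a median of -0.01. The HCC15 siRNA 2 library was higher in 21 of 37 and lower in 16, with a median of 0.13, beside 48.6% higher and 49.1% lower over all genes. The A427 siRNA 4 library was higher in 21 and lower in 15, with a median of 0.12, beside 49.1% higher and 49.2% lower over all genes. The HCC15 siRNA 4 library was higher in 15 and lower in 22, with a median of -0.10, beside 49.1% higher and 48.7% lower over all genes. Medians over all genes were 0.00 in these 3 libraries.
The sign was the same in both lines for 18 of 37 genes with siRNA 2 (48.6%, and 65.2% over all genes), for 22 with siRNA 4 (59.5%, and 69.6%) and for 24 between siRNA 4 and siRNA 2 (64.9%, and 67.0%). The difference between lines in the response to both siRNAs was tested with edgeR, and it passed the adjusted threshold in 0 of 36 genes, beside 0% of all genes. At an unadjusted p under 0.05 it was 0 of 36, beside 78 of all 14481 genes tested. The error of this fit is the difference between the 2 LGR6 siRNAs within each line, and siRNA 4 differed from siRNA 2 in 16.5% of all genes. A gene could thus hardly pass, and the 0 calls do not show that the lines responded alike.

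What the LGR6 siRNAs share was tested in a fit that counted both as samples of 1 arm. With edgeR it called 0 of 36 genes, beside 0% of all genes, and at an unadjusted p under 0.05 it held 3 of 36 and 1512 of all genes. DESeq2 called 387 of all genes and 0 of these. The siRNA number also served as a replicate block, that is the mean of both siRNA effects in the fit of line plus siRNA. Its error leaves out the difference between the siRNAs, so a gene that only 1 of them moved could pass. With this block 3 of 36 passed (8.33%), beside 8.96% of all genes (3.31% higher and 5.65% lower). They were OASL, higher by 1.27 on the log2 scale (SE 0.30, edgeR with Benjamini-Hochberg adjusted p = 0.0365), IFITM3, at -0.44 (SE 0.10, edgeR with Benjamini-Hochberg adjusted p = 0.0277), and HERC6, at -0.62 (SE 0.15, edgeR with Benjamini-Hochberg adjusted p = 0.0407). In each of these 3 genes all 4 LGR6 siRNA libraries lay on the same side of control. The genes were chosen by the mean of these same ratios, so the shared side adds no further support. The share over all genes was not counted.

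The siRNA calls rest on few libraries. Each of the 5 calls of siRNA 4 against control (STAT2, IFIT5, OASL, HERC6, IFI44) missed the threshold when the control library of either line, or the siRNA 4 library of HCC15, was left out, with edgeR adjusted p-values up to 0.321 for STAT2, 0.251 for IFIT5, 0.482 for OASL, 0.441 for HERC6 and 0.929 for IFI44. STAT2 and OASL missed it also without the A427 siRNA 4 library, and HERC6 without the A427 siRNA 2 library. Their log2 differences over the fits with 1 library left out ran from -0.66 to -0.41 for STAT2, 0.59 to 0.78 for IFIT5, 1.298 to 1.678 for OASL, -0.90 to -0.44 for HERC6 (the latter without the HCC15 siRNA 4 library) and 0.25 to 1.16 for IFI44. Such fits also have fewer residual degrees of freedom.
Of the calls between siRNA 4 and siRNA 2, all 4 missed the threshold without either the siRNA 2 or the siRNA 4 library of HCC15. STAT2 missed it also without the A427 siRNA 4 library, IFIT1 and IFI44 without either control library, and IFI44 without the A427 siRNA 2 library. The log2 differences ran from -0.63 to -0.48 for STAT2, -1.17 to -0.40 for IFIT1, 0.638 to 1.004 for IFIT5 and 0.69 to 1.73 for IFI44, with edgeR adjusted p-values up to 0.123, 0.579, 0.15 and 0.680. IFITM3 with siRNA 2 missed it without either control or either siRNA 2 library, at edgeR adjusted p-values from 0.0721 to 0.307 and log2 differences from -0.62 to -0.48. Epithelial markers moved with siRNA 4 as well: 3 of 6 fell against control and 4 of 6 against siRNA 2, and their part in these results was not tested.

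The interferon genes themselves gave almost no reads. Of 21 type I, II and III interferon genes listed in the tables, 19 were at 0 reads in all 6 libraries, which allows 0.103 to 0.117 CPM in a library. IFNA5 had 1 read in all, and IFNE, an interferon of epithelial tissues, had 57, 17 and 23 reads in A427 and 7, 1 and 5 reads in HCC15. IFNE was lower with each LGR6 siRNA in each line, and it missed the threshold in the 3 siRNA contrasts but passed with the replicate block, at a log2 difference of -1.40 (SE 0.35, edgeR with Benjamini-Hochberg adjusted p = 0.0439).

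Receptors, sensing genes and other genes of the pathway were counted beside the shares of all genes given above, 7.62% with siRNA 2, 12.5% with siRNA 4 and 16.5% between them. Of 10 receptor and JAK-STAT genes, all tested, 1 rose and 1 fell with siRNA 2, none passed with siRNA 4, and 1 rose and 1 fell between siRNA 4 and siRNA 2. IFNAR1, a chain of the type I interferon receptor, was at 120, 79.8 and 113 CPM in A427 and at 119, 45.8 and 105 CPM in HCC15, and with siRNA 2 fell by 0.97 on the log2 scale (SE 0.19, edgeR with Benjamini-Hochberg adjusted p = 0.0226). IFNGR2, a chain of the interferon gamma receptor, was at 96.3, 196 and 91.2 CPM in A427 and at 41.1, 79.6 and 26.5 CPM in HCC15, and rose by 0.99 with siRNA 2 (SE 0.16, edgeR with Benjamini-Hochberg adjusted p = 0.0103). In both lines the siRNA 2 library stood apart from the other libraries for these receptors. They were named because they passed with siRNA 2, so this follows largely from the choice.
Of 17 RNA and DNA sensing genes, 13 were tested. None passed with siRNA 2, and with siRNA 4 1 rose (IKBKE) and 2 fell (MAVS, TRAF3). MAVS, the adaptor through which DDX58 and IFIH1 signal, was at 65.7, 62.9 and 47.3 CPM in A427 and at 93.8, 83.8 and 48.4 CPM in HCC15, and fell by 0.71 (SE 0.15, edgeR with Benjamini-Hochberg adjusted p = 0.0187). IKBKE, a kinase that activates IRF3 and IRF7, was at 4.79, 3.09 and 7 CPM in A427 and at 5.89, 3.61 and 13.7 CPM in HCC15, and rose by 0.91 (SE 0.23, edgeR with Benjamini-Hochberg adjusted p = 0.0386).
Among 8 negative regulators, all tested, none passed with siRNA 2 and 1 rose with siRNA 4 (PIAS1). Of 51 other interferon-stimulated genes, 43 were tested: 1 fell with siRNA 2 (DTX3L), and with siRNA 4 1 rose (ISG20) and 1 fell (GBP1). DTX3L, the partner of PARP9, was at 126, 76.8 and 127 CPM in A427 and at 56.1, 38.8 and 51.2 CPM in HCC15.

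More genes of the set differed between the lines than between siRNAs. Between HCC15 and A427, over all 3 siRNAs, 29 of 36 genes passed (80.6%, edgeR with Benjamini-Hochberg adjustment), 19 higher in HCC15 and 10 lower (52.8% and 27.8%), beside 76.5% of all genes tested (37.2% higher and 39.3% lower). The lines are different tumours, and most of the genes tested differed between them. Of the 36 genes, 10 reached 10 reads in at least 2 libraries of HCC15 only, and those had to be higher there to be tested. In the other 26, 9 were higher and 10 lower in HCC15. The matching shares over all genes with reads enough in both lines were not counted, so these counts have no background beside them.

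**Figure D3:**
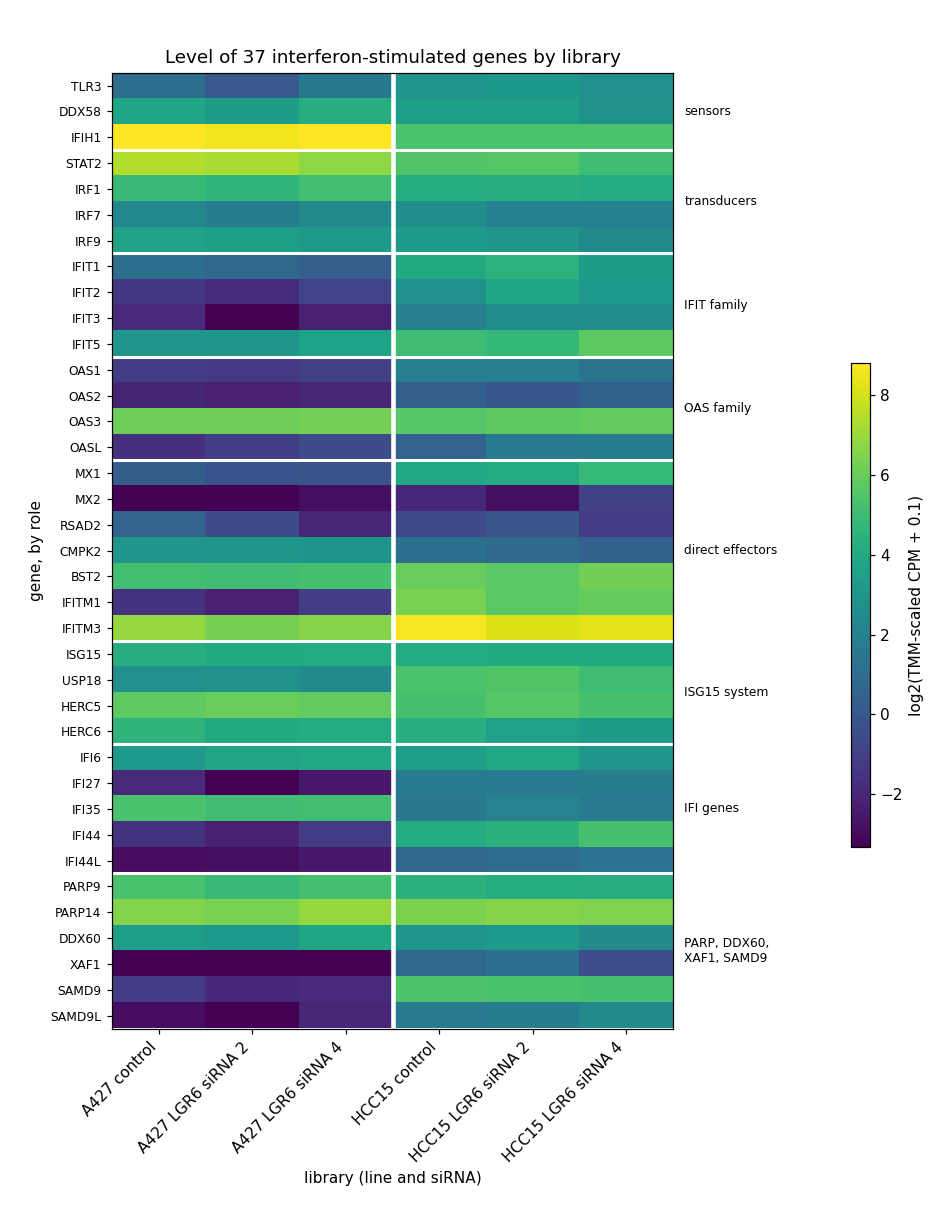
Level of each of the 37 genes (rows, by role) in the 6 libraries (columns), as log2 of TMM-scaled CPM with 0.1 added, from dark (low) to yellow (high). IFIH1, STAT2 and IFI35 are brighter in the A427 columns, and IFITM1, IFI44, SAMD9 and MX1 in the HCC15 columns, while columns within a line look alike.

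The 9 genes higher in HCC15 that had reads enough for the test in A427 as well were led by MX1, at a log2 difference of 4.49 (SE 0.26, edgeR with Benjamini-Hochberg adjusted p = 9.52e-07). IFIT1 was higher by 3.34 (SE 0.21, edgeR with Benjamini-Hochberg adjusted p = 1.62e-06) and OAS1 by 3.21. The others were 2.69 for OASL, 2.60 for USP18, 2.03 for TLR3, 1.91 for IFIT5, 1.74 for IFITM3 and 0.83 for BST2.
The 10 genes that were tested only because of their HCC15 reads are given as levels, since their direction was set by that filter. IFITM1 had 3 to 10 reads in A427 and 1497 to 2152 reads in HCC15, SAMD9 had 4 to 10 and 979 to 1133, and IFI44 had 3 to 9 and 461 to 982. Their fitted log2 differences were 8.07 (SE 0.22), 7.44 (SE 0.22) and 6.79 (SE 0.25). IFI44L had 1 to 2 reads in A427 and 41 to 61 in HCC15, and IFI27 had 0 to 5 and 81 to 88. IFIT2 had 5 to 12 and 178 to 395, and OAS2 had 3 to 4 and 25 to 32. XAF1, at 0 reads in A427, was at least 13.4-fold higher in HCC15, against a floor of 3 reads in each A427 library.
Every HCC15 library was above every A427 library for each of these 19 genes. They were chosen as higher in HCC15, so this follows largely from the choice. The share over all genes was not counted.

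The 10 genes higher in A427 came from several roles. IFIH1 was lower in HCC15 by 3.34 on the log2 scale (-3.34, SE 0.11, edgeR with Benjamini-Hochberg adjusted p = 3.94e-08) and IFI35, a partner of NMI, by 3.46 (-3.46, SE 0.18, edgeR with Benjamini-Hochberg adjusted p = 5.5e-07). CMPK2 was at -2.24 and STAT2 at -1.74. PARP9, IRF1, HERC5, IRF9, HERC6 and OAS3 lay between -0.88 and -0.41. Of these, the differences of IRF9, HERC6 and OAS3 missed the threshold when some single libraries were left out, at edgeR adjusted p-values up to 0.0745, 0.0862 and 0.0739.
The 7 genes that did not pass were IRF7, ISG15, PARP14, IFI6, RSAD2, DDX58 and DDX60. ISG15 was within 0.08 of equal on the log2 scale (-0.08, SE 0.12), and DDX58 and DDX60 were at -0.56 (SE 0.25) and -0.59 (SE 0.24). The genes thus did not share 1 direction: IFIH1, an RNA sensor of the cytosol, was at -3.34 and the endosomal sensor TLR3 at 2.03. DDX58, also a sensor of the cytosol, was at -0.56 and did not pass. The median log2 difference over the 36 genes tested was 1.29, beside -0.03 over all genes tested. That median includes 10 genes tested only because of their HCC15 reads, whose direction was set by that filter.

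**Figure D4:**
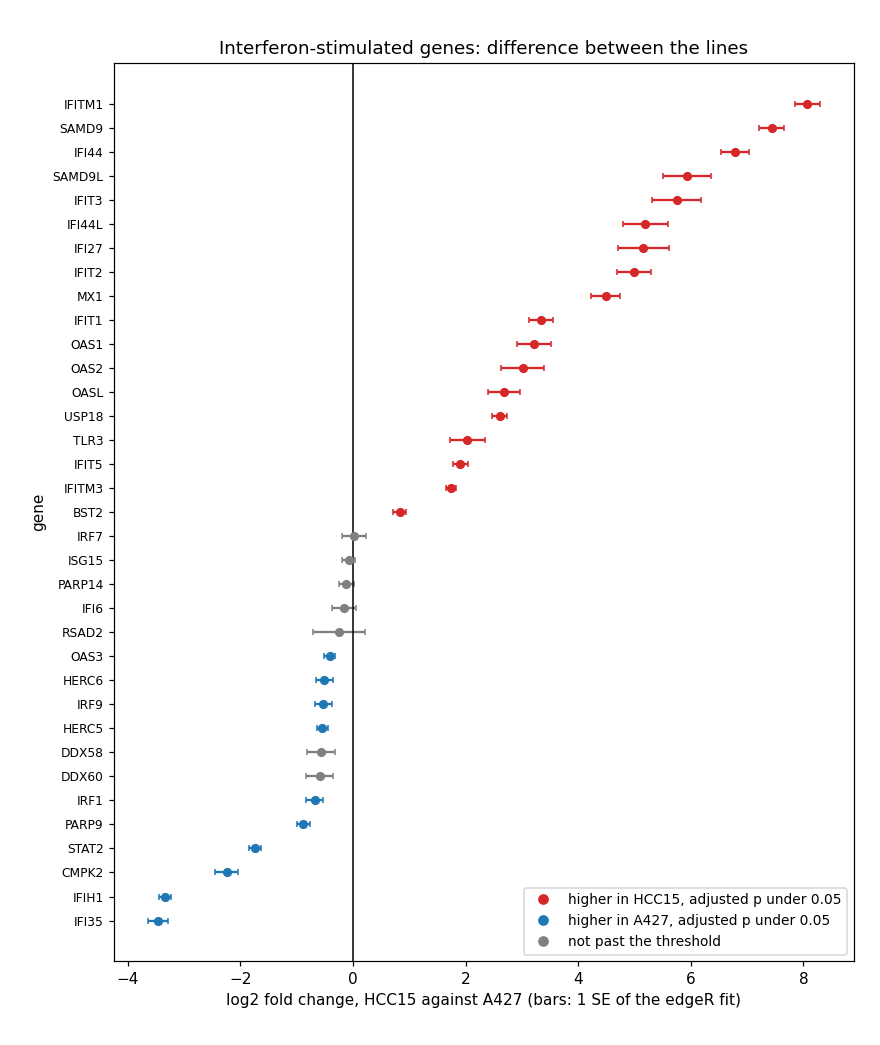
Log2 fold change of HCC15 against A427 (x axis) from the edgeR fit for 35 genes (y axis, sorted), with bars of 1 SE; red is higher in HCC15, blue higher in A427 and grey not past the threshold. The values run from -3.46 for IFI35 to 8.07 for IFITM1, and XAF1 (no reads in A427) and MX2 (not tested) are not drawn. Red genes include those tested only because of their HCC15 reads, IFITM1 among them, whose direction was set by that filter.

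Per length, in TPM, IFITM3 had the highest level of the set in both lines, with a mean of 454 TPM in A427 (370 to 547) and 1416 TPM in HCC15 (1254 to 1693). In A427 it was followed by IFIH1 at 257 TPM, BST2 at 100.8, ISG15 at 79.9, IFI35 at 73.0 and STAT2 at 68.3, and the ranges of the last 3 overlapped their neighbours. In HCC15 it was followed by IFITM1 at 249.6 TPM, BST2 at 168, ISG15 at 71.0 and USP18 at 42.7. BST2 and ISG15 thus held places 3 and 4 in both lines, while IFIH1 went from place 2 in A427 to place 9 in HCC15, at 23.7 TPM.

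Other genes of the pathway were set beside the same background between the lines, where 76.5% of all genes differed (37.2% higher and 39.3% lower). MYD88, the adaptor of most Toll-like receptors, was at 5, 4 and 5 reads in A427 and at 470, 671 and 482 in HCC15. TMEM173 (STING), which relays the sensing of DNA, was at 12, 4 and 15 reads in A427 and at 221, 357 and 354 in HCC15. DHX58 (LGP2), a cofactor of IFIH1, was higher in A427, at 173, 124 and 152 reads against 4, 12 and 7. Of the 13 sensing genes tested, 6 were higher and 5 lower in HCC15, and of the 43 other interferon-stimulated genes 25 were higher and 12 lower. Genes with enough reads in a single line passed the filter through that line, which set their direction. Such genes were not counted apart in these lists. EPSTI1 was at 0 reads in A427 and at 301, 347 and 299 in HCC15, at least 108-fold higher. IFITM2, whose transcripts resemble IFITM1 and IFITM3, was at 10, 2 and 5 reads in A427 and at 3616, 2684 and 2689 in HCC15.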

How the data were processed

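Per the labels' protocols, RNA of 2 lung cancer lines was turned into 6 libraries (KAPA mRNA HyperPrep). Per the submitters' processing notes, FastQC 0.11.1, STAR 2.5.3a and RSEM 1.3.3 were used with hg19. Annotation and strand setting are not given in the sources used here. As files, the authors deposited expected counts and TPM for 23686 genes by symbol. The deposited expected counts are estimates, 5.75% to 6.29% of which were not whole in a library, and they were rounded before testing. The TPM as deposited gave levels per length and 2 alternatives.

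The 14481 genes that reached 10 reads in 2 or more libraries were tested with edgeR 4.0.16 in R 4.3.3: TMM scaling, quasi-likelihood test, Benjamini-Hochberg adjustment over all genes, threshold 0.05. Each siRNA against control, siRNA 4 against siRNA 2 and HCC15 against A427 came from a fit of line plus siRNA (its error is how far siRNA effects differed between lines), both siRNAs together from a fit of line plus arm, and the difference between lines from a fit of line by arm. The script was tested on simulated counts. Alternatives were RLE scaling, no filter on low counts, DESeq2 1.42.0, limma 3.58.1 on log2(TPM + 1) and log2(TPM + 0.1), each library left out, and the siRNA number as a replicate block, since by the labels a number stands for 1 reagent, used in A427 and in HCC15. Across 11656 genes, siRNA 4 minus siRNA 2 in A427 correlated with the same in HCC15 at 0.631. No pair of libraries was close enough to be a duplicate (lowest chi-square per degree of freedom 59.6). A count of 0 allows 3 counts, and such limits cover counting error only.

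The 37 genes and the lists around them were chosen with earlier results of these data known. Genes past the threshold, sensors, early interferon-induced genes and the 5 highest by TPM in a line were given for every library. Up to 4 genes of each other list past the threshold could be named, or those behind a count of 5 or fewer, chosen after their values were seen. Promoters are RefSeq's on GRCh38.p14. The share of 50-base windows found in other genes used GENCODE 29 transcripts and replaced a planned comparison of proteins, which was not run.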

Additional observations from a re-analysis of the deposited data

How the results depend on the processing

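No value reversed its direction past the threshold under an alternative. With siRNA 2 against control, 1104 genes passed in all, 678 with limma on log2(TPM + 0.1), and 4 to 1438 when 1 library was left out, the lowest without the HCC15 control, while the number of interferon-stimulated genes went from 1 to 0 to 1. With siRNA 4 against control, 1814 genes passed, 1145 with limma on log2(TPM + 0.1), and 97 to 2097 with 1 library left out. The interferon-stimulated genes among them went from 5 to 3 with DESeq2, where OASL had no adjusted p, to 1 with limma at each pseudocount (STAT2), and to 0 to 6 with 1 library left out. Between siRNA 4 and siRNA 2, 2395 genes passed and 439 to 2220 with 1 library left out; the 4 interferon-stimulated genes became 2 with DESeq2 (STAT2, IFIT5) and 0 to 5 with 1 library left out. For both siRNAs together 0 genes passed with edgeR, 387 with DESeq2, 1 with limma at each pseudocount and 1298 with the replicate block, which also took the interferon-stimulated genes from 0 to 3. Between the lines, 139 of 139 values of called genes kept their call under another tool, scaling or filter, and 166 of 174 with 1 library left out; the other 8 were those of IRF9, HERC6 and OAS3. Of 1860 values that passed neither way, 189 changed sign (10.2%). Leaving out a library also leaves fewer residual degrees of freedom. The difference between lines could not be fitted without either control library. Limits are 1 library per line and siRNA, 1 control per line, and under 20 reads in A427 for several of the genes.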
